A study of Mus musculus with 2 samples.

Results

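Cycling epithelial cells of the preputial gland (PG) were taken as the cell barcodes of the PG library that carried the keratins *Krt5* and *Krt14* together with genes of DNA replication and mitosis. A barcode was a member when it held at least 500 genes and 1000 unique molecular identifiers (UMIs, each standing for 1 captured RNA molecule), at most 10% mitochondrial UMIs, at least 20 UMIs of *Krt5* and *Krt14* per 10000, and a UMI in at least 3 of the 8 genes *Mki67*, *Top2a*, *Aurkb*, *Plk1*, *Ccnb2*, *Cenpa*, *Rrm2* and *Pclaf*. The rule found 258 members among 2371 keratin-high barcodes, 4699 kept barcodes of PG and 13598 kept barcodes of both libraries. The study compared the PG, a large paired sebaceous gland that opens beside the penis, with back skin of male wild type C57BL/6 mice at 52 weeks of age by single-cell RNA sequencing. Whole preputial glands and skin biopsies of 3 mice were each pooled, dissociated with a whole skin kit and sequenced as 1 library per tissue, so that tissue and library cannot be told apart and no test between samples was possible. No mouse carried a transgene or treatment, and animals cannot be separated within a library. The deposited PG library held 26288071 UMIs and the back skin library 37675226 UMIs, and no kept barcode occurred in both. All levels below are UMIs of a gene summed over the cells of a group, given in each 1000000 UMIs of that group (CPM). Ranges in brackets are 95% intervals, computed exactly, which hold the counting error and not the spread between mice. For gene levels and their ratios they also leave out the spread between cells.

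Sebaceous glands renew themselves throughout life, because mature sebocytes burst to release their lipids and have to be replaced by the division of basal cells at the rim of the gland. A dividing cell licenses its replication origins, copies its DNA in S phase with freshly made nucleotides and histones, and then condenses, aligns and separates its chromosomes in mitosis, a sequence driven by cyclins and their kinases (CDKs). Genes of replication are transcribed earlier in the cycle than those of mitosis, so that the genes found in a cell place it along the cycle.

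The label was checked with epithelial genes that the rule did not use. The adhesion molecule *Epcam* had a UMI in 73.6% of members with all UMIs and in 33.3% after thinning to 1000 UMIs, against 5.34% and 2.43% of PG barcodes with fibroblast markers. The desmosomal protein *Dsp* was found in 49.6% of thinned members and 4.69% of thinned fibroblast-marker barcodes, and *Cdh1*, E-cadherin, in 14.7% and 0.324%. Markers of other cell types were rare. All 5 endothelial genes were at 0 UMIs, and at least 3 fibroblast genes were found in 7 members, at least 3 of 7 immune genes in 3 members, and at least 3 smooth muscle, melanocyte or skeletal muscle genes in none. The 6 fibroblast genes summed to 290 CPM in members, of which *Dcn* made up 227 CPM, against 182 CPM in keratin-high barcodes without any of the 8 cycling genes and 691 CPM in the free RNA of barcodes with 10 to 100 UMIs. The 7 immune genes summed to 111 CPM in members, led by *Cd74*, and 123 CPM in the barcodes without cycling genes. The 5 smooth muscle genes, led by *Tagln*, were lower in members, with 138 CPM against 259 CPM in the barcodes without cycling genes (log2 ratio -0.91, -1.16 to -0.66). Members were deeper than the latter, with a lowest, median and highest UMI count of 1107, 3954 and 12419 against a median of 2722.5, and 20 members (7.75%) were marked as likely doublets against 36 of 1798 (2.0%). Doublets were kept. The part of depth and doublets in the results was not tested beyond the alternatives given with the processing, in which removal of marked doublets left 10.3% members and 64 mitosis genes at least 2-fold higher, as in the full set.

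The members made up 10.9% (9.66 to 12.2%) of the keratin-high barcodes of PG. The same rule found 283 of 4467 keratin-high barcodes in back skin, or 6.34% (5.64 to 7.09%), and the share in PG was higher by 0.78 (0.53 to 1.03) on the log2 scale. Since deeper barcodes hold more genes, all barcodes were also thinned to 1000 UMIs before the rule was applied. Then 102 of 2572 barcodes (3.97%) in PG and 91 of 4590 (1.98%) in back skin passed, a log2 ratio of 1.0 (0.58 to 1.42). Among keratin-high barcodes the share was thus higher in PG with and without thinning. Among keratin-low barcodes the order was the opposite, with at least 3 of the 8 genes in 6.23% of PG and 8.39% of back skin barcodes, and in 1.97% and 3.09% after thinning. The size depended on the keratin limit, as with at least 50 keratin UMIs per 10000 the share in PG was 7.37% and the log2 ratio 0.22 (-0.29 to 0.69), an interval that includes equal shares. Among 618 PG barcodes with at least 3 fibroblast genes and low keratin, which serve as a background for free RNA, 3 (0.485%) held at least 3 of the 8 genes at a median depth of 1393.5 UMIs. The number of PG barcodes fell with each further cycling gene, whereas in back skin 82 barcodes held 2 genes, 92 held 3 and 87 held 4. In PG, 75 barcodes held 3 of the 8 genes, 63 held 4, 53 held 5, 41 held 6, 18 held 7 and 8 held all, while 229 held 1, 86 held 2 and 1798 held none.

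**Figure D1:**
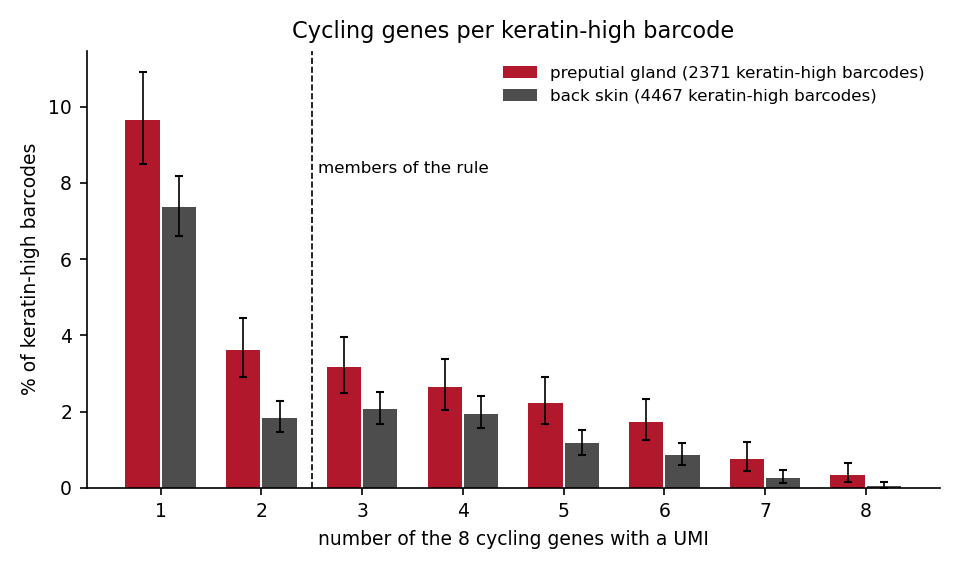
Percentage of keratin-high barcodes (vertical axis) that held a UMI in 1 to 8 of the cycling genes (horizontal axis) in preputial gland (red) and back skin (grey), with exact 95% intervals as error bars; barcodes right of the dashed line are members. Bars of preputial gland stand above those of back skin at each number of genes, and 75 of the 258 members lie at the lower limit of 3 genes.

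The 8 genes that chose the members are given as a description. *Mki67*, a protein coating mitotic chromosomes and the usual marker of proliferation, had a UMI in 83.3% of members, and *Top2a*, the topoisomerase that disentangles replicated DNA, in 76.0%. *Pclaf*, a partner of the replication clamp, was found in 68.2% and the centromeric histone *Cenpa* in 67.1%. *Ccnb2*, a B-type cyclin, was found in 47.7%, *Rrm2*, the S phase subunit of ribonucleotide reductase, in 41.9%, *Aurkb*, the kinase of the chromosomal passenger complex, in 39.5% and *Plk1*, a kinase of mitotic entry, in 32.9%. In fibroblast-marker barcodes the same genes had a UMI in 0.162% (*Plk1*) to 1.46% (*Cenpa*). After thinning of each member to 1000 UMIs, detection of *Mki67* was 45.3% in PG members and 43.1% in back skin members, *Top2a* 41.9% and 62.5%, *Cenpa* 32.2% and 21.6%, and *Rrm2* 20.5% and 7.42%. Since members entered through these genes at unequal full depth, with medians of 3954 UMIs in PG and 4521 UMIs in back skin, no difference between the tissues is read from these shares.

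For the remaining genes, members were compared with the 1798 keratin-high barcodes of PG that held none of the 8 genes, here called rule-negative barcodes. They are not known to be outside the cycle. Because both groups were picked by cycling genes of the same cells, the differences describe the groups and are not evidence of cycling. Of 6119 genes with at least 20 CPM in either group, 549 (8.97%) were at least 2-fold higher in members and 153 (2.5%) at least 2-fold lower, with a median log2 ratio of 0.20 over all genes tested. As genes could pass this floor through the group in which they were high, list counts below are given as descriptions only. The plot of members against rule-negative barcodes shows mitosis genes far above the line of equality, replication genes closer to it, basal genes on it and suprabasal genes below it.

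**Figure D2:**
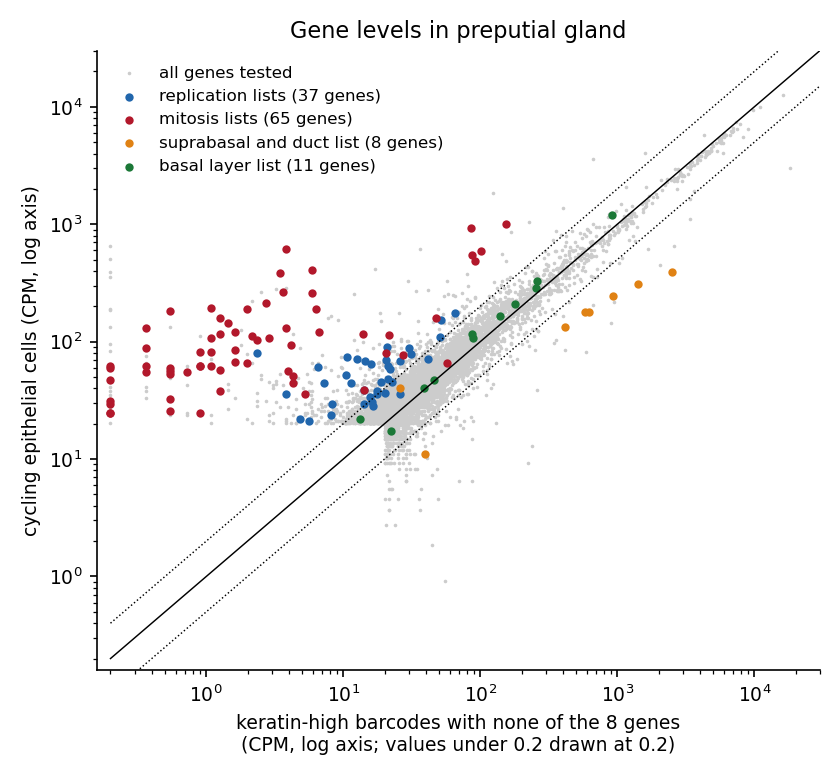
Levels of all 6119 genes with at least 20 CPM in either group in cycling epithelial cells (vertical axis, CPM, log scale) against keratin-high barcodes with none of the 8 cycling genes (horizontal axis, CPM, log scale), with mitosis, replication, suprabasal and basal lists in colour; the solid line marks equal levels and dotted lines 2-fold differences. Of the mitosis lists 64 of 65 genes lie above the upper dotted line and of the suprabasal and duct list 7 of 8 below the lower one.

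Genes that license and fire replication origins were higher in members by modest ratios. Of 19 listed genes, 13 passed the floor, 9 were at least 2-fold higher and none lower, with a median log2 ratio of 1.33. The subunits of the MCM helicase, which unwinds DNA at the fork, were detected in both groups. *Mcm6* was at 88.4 CPM in members and 30.3 CPM in rule-negative barcodes, a log2 ratio of 1.54 (1.17 to 1.91) that was 0.95 (0.39 to 1.49), within 2-fold, among barcodes low in suprabasal genes (both groups taken from the lowest tertile of the summed suprabasal and duct list), *Mcm5* at 64.4 and 16.1 CPM, and *Mcm2* at 36.8 and 20.2 CPM. *Gins2*, part of the same helicase complex, had an interval that included equal levels, with a log2 ratio of 0.47 (-0.08 to 0.99). *Dbf4*, the activator of the origin-firing kinase, was at 60.8 CPM against 6.496 CPM, a log2 ratio of 3.23 (2.62 to 3.85). *Gmnn*, which prevents a second round of licensing, was at 68.1 against 14.4 CPM.

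The enzymes of DNA synthesis followed a similar pattern, with 23 of 24 genes that passed the floor, of 26 listed, at least 2-fold higher and a median log2 ratio of 1.57. The sliding clamp *Pcna* was at 175 CPM in members and 65.9 CPM in rule-negative barcodes, a log2 ratio of 1.41 (1.15 to 1.67). The maintenance methyltransferase *Dnmt1*, which copies methylation onto new strands, was at 154 and 51.4 CPM, and *Uhrf1*, which recruits it, at 74.6 and 10.6 CPM. *Clspn*, an adaptor of the replication checkpoint, had the largest ratio of this list with 80.1 against 2.35 CPM, a log2 ratio of 5.09 (4.24 to 6.06). *Rfc1*, the large subunit of the clamp loader, had the smallest with 0.77 (0.37 to 1.14). The DNA synthesis list summed to 1540 CPM in members and 497 CPM in rule-negative barcodes, beside 343 CPM in free RNA and 348 CPM in fibroblast-marker barcodes, and how much of the level in rule-negative barcodes was background was not tested.

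Genes of nucleotide supply ranged widely. Of 14 listed genes, 13 passed the floor and 5 were at least 2-fold higher, with a median log2 ratio of 0.91. Among them were *Tk1*, thymidine kinase, with 167 against 8.12 CPM and a log2 ratio of 4.36 (3.88 to 4.86), *Rrm1*, the large subunit of ribonucleotide reductase, with 176 against 25.4 CPM, and also *Tyms*, which makes thymidylate, and *Dut*, which guards against uracil in DNA. Among barcodes low in suprabasal genes the log2 ratio of *Tk1* was 3.38 (2.71 to 4.10). The purine and pyrimidine enzymes *Paics*, *Impdh2*, *Atic*, *Gart* and *Cad* had log2 ratios between 0.41 and 0.84, and *Dctpp1*, *Umps* and *Shmt1*, the other members within 2-fold, had 0.91, 0.95 and 0.17. The 12 genes of ribosome biogenesis, another measure of growth, all lay within 2-fold, with a median of 0.39 and *Npm1* at 1127 CPM in members and 1145 CPM in rule-negative barcodes.

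Histones and chromatin factors included the genes with the highest UMI counts among the cell cycle lists. Of 23 listed genes, 19 passed the floor and 18 were at least 2-fold higher, with a median log2 ratio of 3.49. The replacement histone *H2afz* was at 3578 CPM in members and 660 CPM in rule-negative barcodes, a log2 ratio of 2.44 (2.37 to 2.505), and the DNA-bending protein *Hmgb2* at 1834 and 124 CPM, a log2 ratio of 3.88 (3.76 to 4.01). *H2afx*, the histone phosphorylated at DNA breaks, was at 414 and 16.96 CPM. The replication-dependent histones, whose messages mostly lack the poly(A) tail that the library chemistry captures, were found at lower levels, with *Hist1h1b* at 284 against 3.79 CPM and *Hist1h2ae* at 281 against 3.25 CPM. *Hist1h3b* and *Hist1h2ag* were at 0 UMIs in members.

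Ratios differed among cyclins and CDKs. Of 19 cyclins, CDKs and their direct regulators, 16 passed the floor and 10 were at least 2-fold higher in members, with a median log2 ratio of 2.28. The kinase *Cdk1*, which drives entry into mitosis, was at 267 CPM against 2.53 CPM (log2 ratio 6.72, 5.95 to 7.61), its cyclins *Ccna2* at 221 against 2.17 CPM and *Ccnb1* at 126 against 1.80 CPM, and the CDK subunit *Cks2* at 615 against 36.4 CPM. The D-type cyclins *Ccnd2* and *Ccnd3* and the kinase *Cdk4*, which act in G1 phase and pass growth signals to the cycle, lay within 2-fold within PG. *Ccnd2* was at 456 and 400 CPM (log2 ratio 0.19, 0.05 to 0.33, but -0.18, -0.38 to 0.02, among barcodes low in suprabasal genes), *Ccnd3* at 38.7 and 30.3 CPM (0.35, -0.17 to 0.85), and *Cdk4* at 188 and 160 CPM (0.23, 0.01 to 0.46). *Ccnd1* was near the detection limit with 4 UMIs in all members, or 3.68 CPM (1.0 to 9.43), and 3.61 CPM in rule-negative barcodes. *Ccne1*, the cyclin of S phase entry, was at 13.8 and 4.69 CPM and *Cdc6* and *Orc1* at 5.52 and 0.921 CPM in members, all under the floor.

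*Ccnd1* differed between members of PG and back skin. It was at 144 CPM (125 to 165) in 283 skin members, 39.1-fold above PG members, a log2 ratio of PG over skin of -5.29 (-7.18 to -3.91). A difference in the same direction was present in rule-negative barcodes, with 178 CPM in back skin and a log2 ratio of -5.62 between rule-negative barcodes of both tissues. *Ccnd2* was at 456 CPM in PG and 355 CPM in skin members (log2 ratio 0.36, 0.18 to 0.54), *Ccnd3* at 38.7 and 23.4 CPM (0.72, 0.04 to 1.42), and *Cdk4* at 188 and 69.6 CPM (1.43, 1.08 to 1.79). In PG members *Ccnd2* was thus the D-type cyclin with the most UMIs, with 495 against 42 of *Ccnd3* and 4 of *Ccnd1*. The transcription factor *Myc*, which drives growth, was at 84.7 CPM in PG and 11.7 CPM in skin members (2.85, 2.10 to 3.69), while rule-negative barcodes held 72.7 and 29.9 CPM.

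**Figure D3:**
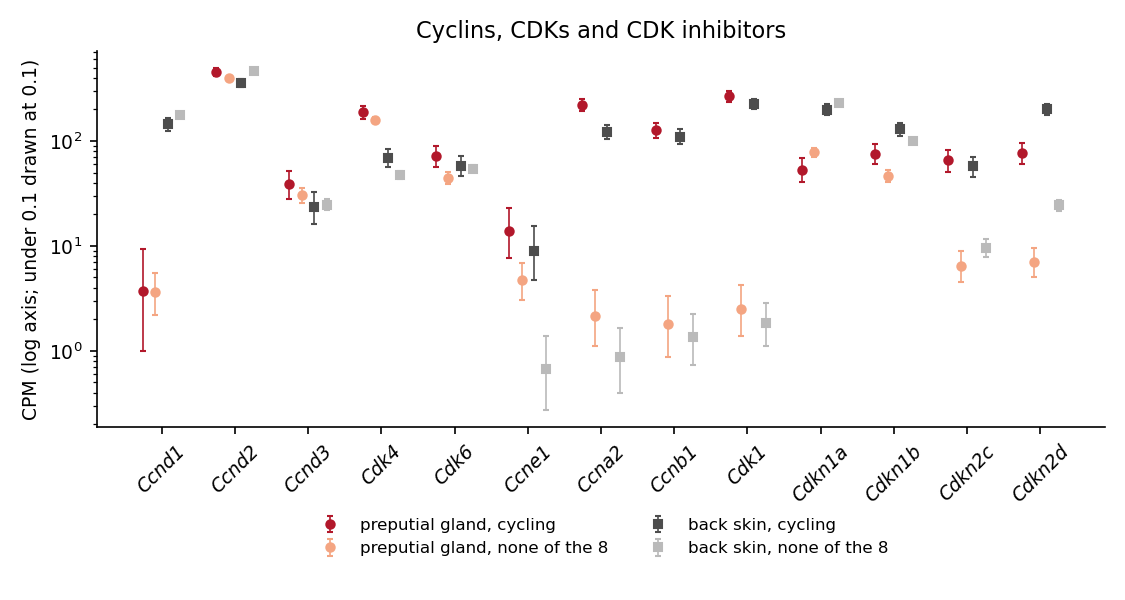
Levels (CPM, log scale) of cyclins, CDKs and CDK inhibitors in cycling and rule-negative keratin-high barcodes of preputial gland (red, light red circles) and back skin (dark, light grey squares), with exact 95% counting intervals. *Ccnd1* lies at 3.68 CPM in cycling cells of preputial gland and 144 CPM in those of back skin, whereas *Ccna2*, *Ccnb1* and *Cdk1* separate cycling from rule-negative barcodes in both tissues.

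CDK inhibitors and pocket proteins, which hold the cycle back, did not move together. Of 10 listed genes 5 passed the floor, of which 3 were at least 2-fold higher in members, with a median log2 ratio of 1.99. The INK4 inhibitors *Cdkn2d* and *Cdkn2c* were at 76.4 against 7.04 CPM (log2 ratio 3.44, 2.88 to 4.03) and at 65.4 against 6.496 CPM (3.33, 2.73 to 3.95), and the pocket protein *Rbl1* at 45.1 against 11.4 CPM. The log2 ratio of *Cdkn2c* was 4.48 (3.25 to 6.01) among barcodes low in suprabasal genes. *Cdkn1a*, the target of p53 that arrests cells after damage, was at 53.4 CPM in members and 78.0 CPM in rule-negative barcodes (log2 ratio -0.55, -0.97 to -0.15), but 1.35, -0.10 to 2.76, when both groups were taken only from barcodes low in suprabasal genes. *Cdkn1b* was at 75.5 and 46.6 CPM. *Cdkn2a*, which accumulates in senescent cells, had no UMI in either group, which allows up to 2.76 CPM in members. *Cdkn1a* and *Cdkn2d* were 3.73-fold and 2.63-fold lower in PG members than in skin members, and lower in rule-negative barcodes too, with log2 ratios of -1.56 and -1.79.

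Of 14 cell cycle transcription factors, 5 passed the floor and 3 were at least 2-fold higher, with a median log2 ratio of 1.36. *Foxm1*, the activator of mitotic genes, was at 52.5 against 2.53 CPM (4.38, 3.51 to 5.34), and *E2f8*, an E2F that represses its targets late in S phase, at 37.7 CPM with 41 UMIs against 0.361 CPM with 2 UMIs (6.71, 4.76 to 9.80). The related repressor *E2f7*, with 20 UMIs in members and none in rule-negative barcodes, was at least 34.01-fold higher, but it lay under the floor. The activators *E2f1*, *E2f2* and *E2f3* were at 15.7, 3.68 and 14.7 CPM in members, all under the floor. *Tfdp1*, the E2F partner, was at 79.2 against 30.9 CPM.

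Mitosis genes had larger ratios than replication genes, in groups that the rule set apart mostly by genes of G2 phase and mitosis. Of 67 genes on 4 lists (mitotic kinases and checkpoint, kinetochore and centromere, spindle and cytokinesis, the ubiquitin ligase APC/C and its substrates), 65 passed the floor and 64 were at least 2-fold higher, with a median log2 ratio of 5.77, whereas 37 of 45 replication genes passed, 32 were at least 2-fold higher and the median was 1.54. The chromosomal passengers *Birc5* and *Cdca8* were at 383 against 3.43 CPM and 264 against 3.61 CPM. *Tpx2*, which activates Aurora A on the spindle, was at 193 against 1.08 CPM (7.48, 6.33 to 8.94), and the checkpoint kinase *Bub1* had 27 UMIs in members and none in rule-negative barcodes, at least 45.9-fold higher. *Bub3*, which also acts outside the checkpoint, had the smallest ratio of that list with 160 against 47.1 CPM (1.77, 1.48 to 2.05).

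At the kinetochore, *Cenpf* was at 410 against 5.95 CPM (6.10, 5.59 to 6.66), *Cenpe*, the motor that moves chromosomes to the spindle equator, at 116 against 1.26 CPM, and *Ndc80*, which holds the microtubule, had 51 UMIs in members and none in rule-negative barcodes. All 28 spindle and cytokinesis genes were at least 2-fold higher, with a median of 6.10. Tubulins and the tubulin-binding *Stmn1* had the most UMIs and the smaller ratios, with *Tubb5* at 1006 against 154 CPM (2.70, 2.57 to 2.83), while the motor *Kif11* was at 182 against 0.541 CPM, with 3 UMIs in rule-negative barcodes (8.40, 6.83 to 10.69). On the list of the APC/C and its substrates, *Ube2c* was at 617 against 3.79 CPM (7.35, 6.72 to 8.05) and *Cdc20* at 190 against 1.98 CPM. In contrast, *Pttg1*, securin, was at 65.4 and 57.2 CPM (0.19, -0.20 to 0.57) and was the single mitosis gene above the floor that stayed within 2-fold. Condensins and cohesins (10 of 11 at least 2-fold higher, median 3.96) included *Smc2* at 254 against 11.9 CPM. *Smc3*, part of the cohesin ring that also acts outside mitosis, was at 104 against 53.8 CPM. Of 13 repair and checkpoint genes 9 passed the floor and all 9 were at least 2-fold higher. In the nuclear envelope *Lmnb1* was at 151 against 18.9 CPM, while *Lmna*, the lamin of differentiated cells, was at 452 and 313 CPM.

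Outside the lists, the largest ratios included those of *Aspm*, *Iqgap3*, *Gm20628*, *Pimreg*, *Mxd3*, *Cdca2*, *Cdkn3*, *Arhgap11a* and *Hist1h1d*. *Aspm*, a spindle pole protein, was at 134 against 0.541 CPM (7.96, 6.38 to 10.25). *Cdkn3*, a phosphatase of CDKs, was at 93.0 against 1.80 CPM.

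Promoters of replication and mitosis genes were searched for motifs of the cell cycle. The cell cycle homology region (CHR, searched as TTTGAA), the CCAAT box (CCAAT) and an E2F site (TTTNNCGC) were searched on both strands in the 250 bases before the RefSeq start of each gene on GRCm38.p6. The CHR was found in 16% of 32851 mouse promoters, 27.9% of 68 promoters of 61 mitosis genes and 15.6% of 45 promoters of 36 replication genes. The CCAAT box was found in 33.8%, 66.2% and 57.8% in the same order, and the E2F site in 4.28%, 13.2% and 24.4%. CHR and CCAAT occurred together in 5.55% of all promoters, 23.5% of those of mitosis genes and 8.89% of those of replication genes. Of 8 promoters of suprabasal and duct genes 3 held the CHR, 2 the CCAAT box and 0 the E2F site, and of 8 promoters of basal genes 0, 3 and 2. These shares were not tested against each other. A match is a run of letters and not a measured binding site. The 120 bases before the start are shown for 5 genes of the G2 phase and mitosis (*Ccnb2*, *Top2a*, *Cdk1*, *Ube2c*, *Cdc20*), which carry the CCAAT box more than once, and for *Mcm6*, a replication gene with 3 E2F matches, 2 of which overlap. Capitals mark matches of the 3 motifs on either strand, and sequences run 5′ to 3′ along the strand of the gene.
Ccnb2, chr9:70421555-70421674, minus strand: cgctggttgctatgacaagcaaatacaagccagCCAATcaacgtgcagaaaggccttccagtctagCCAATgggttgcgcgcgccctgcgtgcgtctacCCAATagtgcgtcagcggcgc
Top2a, chr11:99024190-99024309, minus strand: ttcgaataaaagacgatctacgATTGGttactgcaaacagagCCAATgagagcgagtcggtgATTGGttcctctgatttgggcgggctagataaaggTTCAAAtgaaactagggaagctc
Cdk1, chr10:69352913-69353032, minus strand: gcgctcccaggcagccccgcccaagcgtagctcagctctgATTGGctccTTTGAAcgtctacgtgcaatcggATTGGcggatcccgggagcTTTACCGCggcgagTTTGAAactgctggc
Ube2c, chr2:164769809-164769928, plus strand: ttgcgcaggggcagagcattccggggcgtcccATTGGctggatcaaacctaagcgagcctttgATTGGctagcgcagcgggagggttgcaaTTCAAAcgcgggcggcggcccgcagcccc
Cdc20, chr4:118437344-118437463, minus strand: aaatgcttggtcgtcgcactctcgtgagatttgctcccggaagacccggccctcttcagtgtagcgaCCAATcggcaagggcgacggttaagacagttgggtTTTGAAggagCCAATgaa
Mcm6, chr1:128359706-128359825, minus strand: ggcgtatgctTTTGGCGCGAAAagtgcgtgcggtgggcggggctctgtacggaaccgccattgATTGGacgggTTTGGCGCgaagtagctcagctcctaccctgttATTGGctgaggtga

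In these stretches *Ccnb2* held 3 CCAAT boxes and no CHR, *Top2a* 3 CCAAT boxes and 1 CHR, and *Cdk1* 2 of each with 1 E2F match. *Ube2c* and *Cdc20* each held 2 CCAAT boxes and 1 CHR. *Mcm6* held 2 CCAAT boxes and no CHR. For *Mcm6* the bases just after the RefSeq start were in 0 of 4 transcripts of another annotation, so that the position of its start, and with it of this stretch, is uncertain.

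Members were sorted by which of the rule genes they held, a description by the values that chose them, into 45 (17.4%) with *Rrm2* or *Pclaf* but none of *Plk1*, *Ccnb2* and *Cenpa* (replication side), 62 (24.0%) with the reverse (mitosis side), 149 (57.8%) with both and 2 with neither. Depth moved with this split, with a median of 3601 UMIs on the replication side, 3208 on the mitosis side and 4342 in members with both, so that a missing UMI of the other side can follow from fewer UMIs. The replication lists, which hold none of these genes, summed to a median of 44.5 UMIs per 10000 on the replication side, 16.4 in members with both and 8.61 on the mitosis side, against 4.92 in rule-negative barcodes. The mitosis lists summed to 70.0, 125 and 109 against 7.05. Members of the replication side also carried mitosis genes, and the sides overlapped in both sums. The rule itself favours this, since a member without *Plk1*, *Ccnb2* and *Cenpa* could pass only with *Mki67*, *Top2a* or *Aurkb*. Barcodes with *Rrm2* and *Pclaf* alone were left out. The 24 rule-negative barcodes with a replication sum of at least 44.5 had a median mitosis sum of 14.2. Whether replicating cells in general carry mitosis genes can therefore not be read from this side. Of 6871 genes with at least 20 CPM on either side, 1003 (14.6%) were at least 2-fold higher on the mitosis side and 827 (12.0%) at least 2-fold lower. Of the replication lists 41 genes passed this floor and 38 were lower on the mitosis side, with a median log2 ratio of -2.61, and of the mitosis lists 65 passed, 25 were higher and 5 lower, with a median of 0.54, beside 0.09 over all genes tested. Other lists differed between the sides as well. The sebocyte list summed to 2708 CPM on the mitosis side and 1315 CPM on the replication side (log2 ratio 1.04, 0.82 to 1.27) and the suprabasal and duct list to 2612 and 1521 CPM (0.78, 0.57 to 0.99). Immune genes summed to 179 and 17.7 CPM (3.34, 1.70 to 5.68), mostly *Cd74* with 31 and 3 UMIs, fibroblast genes to 246 and 395 CPM and smooth muscle genes to 62.6 and 218 CPM (-1.80, -2.77 to -0.90), and their part in the differences between the sides was not tested.

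On single genes, the counts were small. *Mcm5* had 3 UMIs on the mitosis side and 33 on the replication side (12.5 and 195 CPM), *Pcna* 14 and 67 (58.4 and 395 CPM) and *Hells*, a chromatin remodeller of S phase, 1 and 32. *Cdc20* had 82 and 7 UMIs (342 and 41.3 CPM, log2 ratio 3.05, 1.94 to 4.41), *Cenpf* 147 and 15 and *Ccnb1* 38 and 4. *Cdk1* was at 188 and 177 CPM and *Mki67* at 609 and 507 CPM on the mitosis and replication sides, differences within their counting intervals. *Dbf4*, on the licensing list, was the single replication gene that was at least 2-fold higher on the mitosis side, with 20 and 5 UMIs (log2 ratio 1.501, 0.04 to 3.27). In back skin the same split gave 25.8% on the replication side, 43.5% with both and 29.7% on the mitosis side.

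**Figure D4:**
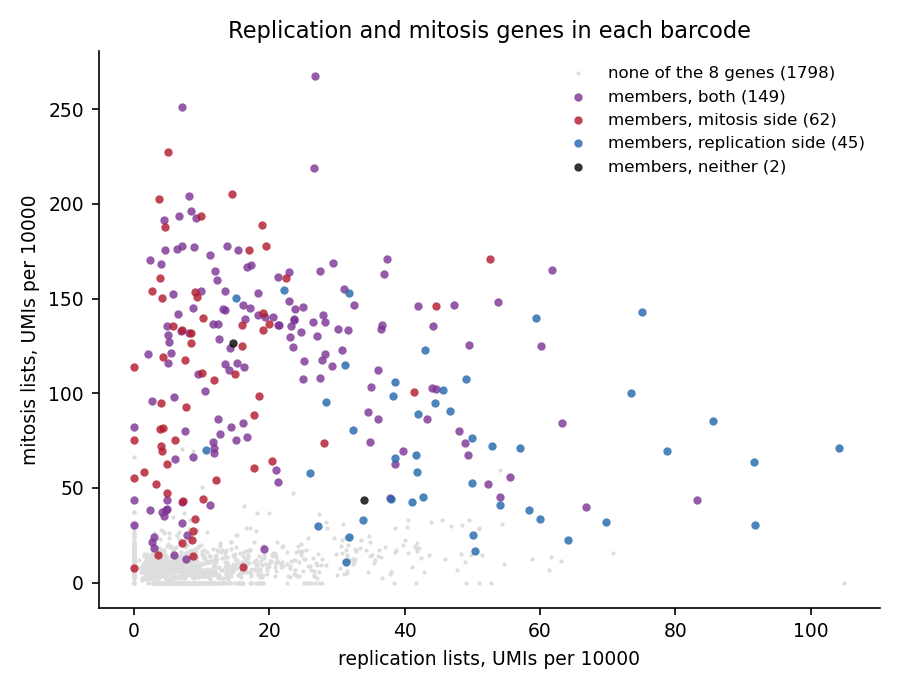
Summed UMIs per 10000 of the mitosis lists (vertical axis) against the replication lists (horizontal axis) in each of the 258 members, coloured by side, and in 1798 keratin-high barcodes of preputial gland with none of the 8 genes (light grey). Members of the replication side lie to the right, with a median replication sum of 44.5, those of the mitosis side to the left with 8.61, and a tail of grey points reaches replication sums as high as those of members.

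The edges of the rule were gradual. The 75 members with 3 of the 8 genes had a median mitosis sum of 58.2 UMIs per 10000 and the 86 barcodes with 2 genes, just outside, 36.1, while their replication sums were 14.1 and 16.5. At the keratin limit, 27 members with 20 to 22 keratin UMIs per 10000 had a median mitosis sum of 103 and 28 cycling barcodes with 18 to 20 one of 76.1. Among the rule-negative barcodes, 220 (12.2%) reached or passed the members' median replication sum of 17.2, against 29 of 618 fibroblast-marker barcodes (4.69%). These 220 barcodes had a median mitosis sum of 11.5 and a median depth of 2818 UMIs, and the 29 fibroblast-marker barcodes a median depth of 1406 UMIs. Hence some barcodes with high replication and low mitosis genes lay outside the rule.

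Genes of the basal layer lay within 2-fold between members and rule-negative barcodes. Of 11 genes that passed the floor, of 12 listed, 10 were higher in members, none of them 2-fold, with a median log2 ratio of 0.24, and the list summed to 2554 and 2057 CPM (0.31, 0.25 to 0.37). Most genes of any kind did the same. Of all 6119 genes tested, 5417 lay within 2-fold and 4119 were higher in members, with a median of 0.20. *Krt15*, a keratin of basal progenitors, was at 1207 and 916 CPM (0.40, 0.31 to 0.49), *Trp63*, the master regulator of stratified epithelia, at 330 and 261 CPM, and the hemidesmosome collagen *Col17a1* at 166 and 140 CPM. Of 9 listed stem cell markers 6 passed the floor, 2 were higher in members, neither of them 2-fold, and *Plet1* was at least 2-fold lower with 95.7 against 201 CPM. *Lrig1*, a marker of sebaceous progenitors, was at 59.8 and 51.2 CPM (0.22, -0.19 to 0.62), *Sox9* at 192 and 243 CPM, and *Lgr5*, *Lgr6* and *Prdm1* had 1 UMI each in members. Of 16 growth factor and hormone receptors and ligands 12 passed the floor, none was at least 2-fold higher and 2 were lower, among them *Areg*, a ligand of the EGF receptor, with 8.29 against 48.0 CPM.

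Most suprabasal and duct genes were lower in members than in rule-negative barcodes. Of 13 listed genes 8 passed the floor, 7 were at least 2-fold lower and none higher, with a median log2 ratio of -1.81. The list summed to 1510 CPM in members, 6542 CPM in rule-negative barcodes and 2634 CPM in the free RNA of PG. The part of free RNA in the levels of members was not tested. *Krtdap* was at 391 against 2490 CPM (-2.67, -2.81 to -2.53), the envelope precursor *Sprr1a* at 310 against 1403 CPM, *Krt79*, a keratin of the sebaceous duct, at 244 against 934 CPM, and *Krt6a* at 180 against 622 CPM. *Krt10* was the exception with 40.5 against 26.0 CPM (0.64, 0.12 to 1.14). Outside the lists the smallest ratios belonged to *4833423E24Rik*, *Ly6g6c*, *Psapl1*, *Slpi*, *Cst6*, *Teddm3*, *Crabp2*, *Defb6*, *AA467197* and *Fam25c*. The protease inhibitor *Cst6* was at 3012 against 18170 CPM, the antileukoprotease *Slpi* at 145 against 898 CPM and the defensin *Defb6* at 449 against 2047 CPM. The free RNA of PG held *Cst6* at 7760 CPM. Many of these values changed when both groups were taken only from the lowest tertile of the suprabasal and duct sum, a comparison chosen after seeing the data, which by its construction says nothing of the suprabasal genes themselves. Of the genes outside that list, the log2 ratios of *Slpi*, *Ly6g6c*, *Cst6*, *Fam25c* and *Plet1* were then 0.84, 1.32, 0.051, 0.058 and 0.14, and only the interval of *Slpi* (0.29 to 1.37) excluded 0. Those of *Psapl1*, *Crabp2* and *Defb6* were -0.36, -0.36 and -0.18, and *4833423E24Rik* and *AA467197* remained more than 2-fold lower with -1.36 (-3.32 to 0.14) and -1.11 (-2.40 to -0.03). In all, 640 genes were at least 2-fold higher and 161 at least 2-fold lower in that tertile.

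Sebocyte genes were present in members, with *Mgst1*, a microsomal glutathione transferase abundant in sebocytes, at 1212 and 1285 CPM in members and rule-negative barcodes (-0.08, -0.17 to 0.00), *Plin2*, the coat protein of lipid droplets, at 238 and 259 CPM, and *Pparg*, the master regulator of sebocyte differentiation, at 25.8 and 19.8 CPM (0.38, -0.28 to 0.99). Of 12 listed genes 9 passed the floor, 2 were at least 2-fold lower and none higher, with a median of -0.38. Those were *Awat2*, a wax synthase of mature sebocytes, with 9.21 against 222 CPM (-4.59, -5.66 to -3.71, but -0.21, -1.99 to 1.28 among barcodes low in suprabasal genes), and *Soat1*, which esterifies cholesterol, with 8.29 against 33.6 CPM. Free RNA of this library was rich in the same genes, with *Scd1*, a fatty acid desaturase, at 3460 CPM against 274 CPM in members and 365 CPM in rule-negative barcodes (log2 ratio -0.41, but 0.44 among barcodes low in suprabasal genes) and *Mgst1* at 2885 CPM, and its part in the levels of members was not tested. *Elovl3* and *Far2* were at 0 UMIs in members.

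The share of members along these programs was read after thinning to 1000 UMIs, with barcodes ranked by the summed list and ties broken at random. It was 6.41% (4.87 to 8.26%) in the lowest, 4.43% in the middle and 1.05% (0.481 to 1.98%) in the highest tertile of the suprabasal and duct sum, a log2 ratio of highest over lowest of -2.61 (-3.81 to -1.58). For the basal sum it was 1.98%, 5.13% and 4.78%, a log2 ratio of 1.27 (0.42 to 2.18). For the sebocyte sum it was 4.20%, 4.08% and 3.62%, a log2 ratio of -0.21 (-0.96 to 0.52). Without thinning the shares were 14.9%, 12.2% and 5.57% for suprabasal genes, 6.95%, 14.8% and 10.9% for basal genes and 7.08%, 14.4% and 11.1% for sebocyte genes. Along suprabasal genes the share was thus lowest in the highest tertile, and along basal genes it was lowest in the lowest tertile. Along sebocyte genes the log2 ratio turned positive without thinning (0.65, 0.15 to 1.16) and with a keratin limit of 50 UMIs per 10000 (0.74, -0.54 to 2.12).

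**Figure D5:**
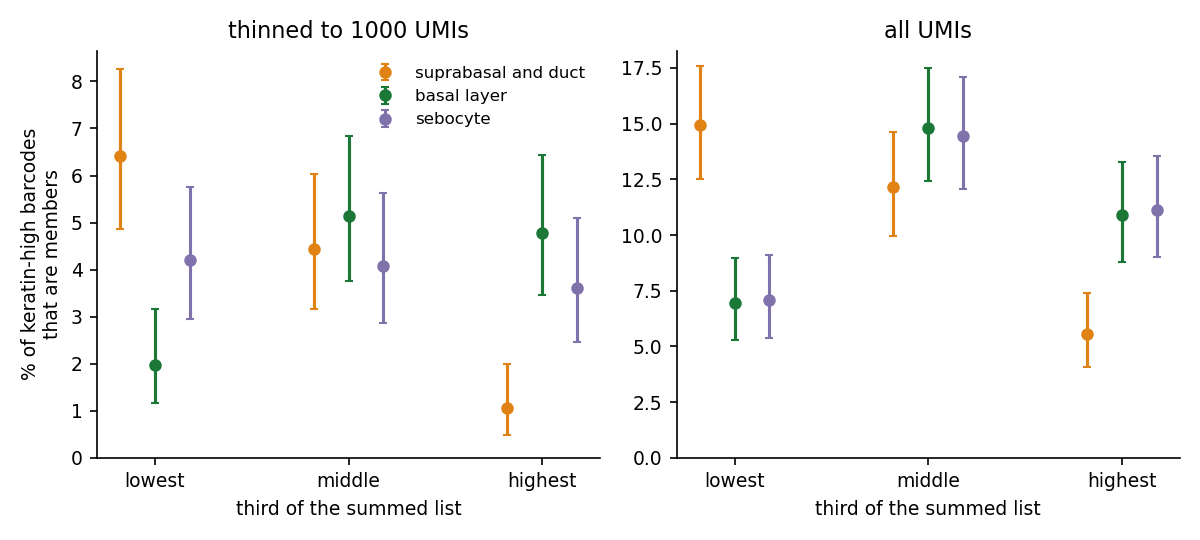
Percentage of keratin-high barcodes of preputial gland that were members (vertical axis, with exact 95% intervals) in the lowest, middle and highest tertile of the summed suprabasal and duct, basal layer and sebocyte lists, after thinning to 1000 UMIs (left) and with all UMIs (right). With suprabasal genes the share is 6.41% in the lowest and 1.05% in the highest group after thinning, and with sebocyte genes it lies between 3.62% and 4.20%.

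The keratin limit left out cycling barcodes with little *Krt5* and *Krt14*. Of 2328 keratin-low barcodes of PG, 145 (6.23%) held at least 3 of the 8 genes, of which 4 had at least 3 immune genes, 2 others at least 3 fibroblast genes, 2 at least 3 endothelial genes and 137 none of these. Of the 137 barcodes, 130 held at least 1 keratin UMI and 86 *Epcam*, and their *Mgst1* and *Pparg* were at 2051 and 38.4 CPM. Of 6320 genes with at least 20 CPM in either group, 185 (2.93%) were at least 2-fold higher in the 145 barcodes than in the members and 253 (4.0%) at least 2-fold lower, with a median log2 ratio of 0.01. Of the sebocyte genes, all 9 that passed the floor were higher in keratin-low cycling barcodes, 2 of them at least 2-fold, with a median of 0.69, whereas 6 of 7 suprabasal genes were at least 2-fold lower. Markers of other cell types moved with these values. Immune genes summed to 593 CPM in the 145 barcodes and 111 CPM in members (log2 ratio 2.41, 2.11 to 2.72), mostly *Cd74* with 275 and 77 UMIs, 2 of 4 fibroblast genes were at least 2-fold higher, and the 6 epithelial genes *Krt5*, *Krt14*, *Epcam*, *Cdh1*, *Perp* and *Dsp* summed to 3021 and 6097 CPM, and their part in the sebocyte values was not tested. The 13 genes of a dissociation stress list, which rise during enzymatic digestion, summed to 1068 CPM in the 145 barcodes and 1713 CPM in members (log2 ratio -0.68, -0.81 to -0.55). At least 2-fold lower were 5 of them, and their part in the other values was not tested. Of 66 mitosis genes 65 lay within 2-fold and of 41 replication genes 39.

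Between PG and back skin members, most cell cycle genes lay within 2-fold. Of 6625 genes with at least 20 CPM in either group, 1144 (17.3%) were at least 2-fold higher in PG and 935 (14.1%) at least 2-fold lower, with a median log2 ratio of 0.07. Of 38 replication genes 4 were higher and 1 lower, with a median of 0.21, and of 67 mitosis genes 3 were higher and 7 lower, with a median of -0.14. The checkpoint protein *Mad2l1* was at 93.9 CPM in PG and 29.6 CPM in skin members (1.66, 1.14 to 2.21), the spindle bundler *Prc1* at 214 and 715 CPM (-1.74, -1.95 to -1.54) and *Nusap1* at 132 and 411 CPM. Of 22 genes of histones and chromatin 9 were at least 2-fold lower in PG, 2 higher and 11 within 2-fold, with a median of -0.65. *Hist1h1b* was at 284 against 1845 CPM, whereas *H2afx* (414 and 141 CPM) and *Hmgn2* (554 and 167 CPM) were higher. Rule-negative barcodes showed the same sides for *Hist1h1b* and *Hmgn2*, with log2 ratios of -2.96 and 2.16.

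Genes with the largest ratios between members of both libraries had the same direction in rule-negative barcodes. The 10 genes with the largest ratios were *Lcn2*, *Cck*, *Adh1*, *Cyp2f2*, *Tgm2*, *Igfbp2*, *Mia*, *Car8*, *AA467197* and *Gstp1*. *Lcn2*, an iron-scavenging lipocalin, was at 2573 CPM in PG and 4.13 CPM in skin members (9.28, 8.16 to 10.73) and was found in 97.7% of PG members. It was at 861 CPM in the free RNA of PG and in 26.4% of fibroblast-marker barcodes, and after thinning to 1000 UMIs in 76.7% of members and 22.2% of fibroblast-marker barcodes. *Cck*, the peptide hormone cholecystokinin, was at 950 CPM with no UMI in skin members, at least 459.7-fold higher. *Adh1* and *Cyp2f2*, enzymes of alcohol and xenobiotic metabolism, were at 440 and 423 CPM. In rule-negative barcodes the log2 ratios of the 10 genes lay between 5.36 (*Tgm2*) and 10.21 (*Lcn2*). Of 12 sebocyte genes 7 passed the floor and 5 were at least 2-fold higher in PG members, with *Mgst1* 11.1-fold and *Plin2* 15.7-fold higher and *Pparg* at 25.8 CPM against 0 UMIs, at least 12.5-fold. The sebocyte list summed to 1919 CPM in PG and 251 CPM in skin members and to 8056 and 457 CPM in the free RNA of these libraries, a gap in the same direction, and the part of free RNA in these ratios was not tested. Of 16 growth factor and hormone receptors and ligands 11 passed the floor, 2 were at least 2-fold higher in PG members and 3 lower, with a median of -0.52. The largest ratio of this list was that of *Esr1*, the estrogen receptor, at 23.9 and 2.76 CPM (3.12, 1.59 to 5.10).

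Lower in PG members were *Mt4*, *Serpinb2*, *Tnnc2*, *Hbb-bs*, *Pou3f1*, *Capns2*, *Calm4*, *Krt77*, *Tnfrsf19* and *Id4*. In rule-negative barcodes their log2 ratios lay between -11.11 (*Serpinb2*, 3 UMIs in PG) and -2.79 (*Calm4*), that of *Mt4*, with no UMI in PG, being at most -8.91. *Serpinb2*, a keratinocyte serpin, had no UMI in PG members and 770 CPM in skin members, and *Krt77*, a keratin of the skin, no UMI and 189 CPM. *Hbb-bs*, a globin of red blood cells, and *Tnnc2*, a troponin of fast muscle, were at 273 and 95.8 CPM in skin members and at 4543 and 3273 CPM in the free RNA of that library. Of 12 basal genes 4 were at least 2-fold lower in PG members, 8 were within 2-fold and 0 at least 2-fold higher, and of 12 suprabasal and duct genes that passed the floor 7 were lower and 3 higher. The basal genes *Krt15* and *Col17a1* were 4.26-fold and 6.498-fold lower in PG members, and *Krt10* was at 40.5 against 778 CPM. All 13 genes of the dissociation stress list, such as *Jun*, *Fos* and *Atf3*, which rise during enzymatic digestion, were at least 2-fold lower in PG members, with a median log2 ratio of -2.46, and all 13 were also lower in rule-negative barcodes, where 993 of 6157 genes (16.1%) were at least 2-fold lower, with a median of -2.98. The part of these stress genes in the other differences between libraries was not tested.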

How the data were processed

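Droplet libraries (10x Genomics Single Cell 3′ v3.1, poly(A) RNA) of 1 pool of 3 mice per tissue were aligned by the authors with Cell Ranger 4 (per the file headers) to mm10 (submitters' processing notes), and the annotation release is not given in the sources used here. The values used here are raw UMI counts per gene and barcode as the authors deposited them, unfiltered, for 32285 genes. Low-UMI barcodes were removed by the limits given at the start, since the study's own limits are not given as numbers in the sources used here. Likely doublets were scored against simulated barcode pairs, at 0.8% per 1000 kept barcodes, and kept.

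The members, lists and tests were chosen with earlier results of these data known. Counts were summed over cells and scaled to CPM, and genes with at least 20 CPM in either group were compared. Intervals are exact (Clopper-Pearson for shares, Poisson for levels, binomial for ratios, 95%) and cover counting error only. Where a group held 0 UMIs, the bound used 3 counts over the whole group. For thinning, 1000 UMIs were drawn per barcode without replacement. Named genes were the rule genes, up to 4 per list (highest level, largest and smallest ratio) with key regulators, and the 10 largest ratios each way outside the lists among genes with at least 50 CPM and a UMI in at least 10% of cells of either group, without mitochondrial and ribosomal protein genes. Further listed genes were named after their values were seen. Some genes that the rule names are not reported here. Promoters were taken from RefSeq on GRCm38.p6. Tested on simulated data for members over rule-negative barcodes (6119 genes, 200 changed 4-fold), 95.5% of intervals held the true ratio and 99.5% of changed genes were recovered. The simulated sums held counting error only, the error that the intervals assume. The simulation thus checked the computation and not whether the intervals cover the spread between cells. With 1 library per tissue, no p-value was computed. Python 3.11.15, numpy 2.4.6, pandas 2.3.3, scipy 1.17.1, scikit-learn 1.9.0 and matplotlib 3.10.9 were used. Alternatives changed the barcode limits, number of cycling genes, keratin limit, doublets, thinning and floor.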

Additional observations from a re-analysis of the deposited data

How the results depend on the processing

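The share of members in PG was 14.9% with at least 1000 genes and 2000 UMIs, 14.5% with at least 2 and 7.72% with at least 4 of the 8 genes, 7.37% with at least 50 keratin UMIs per 10000 and 3.97% after thinning, and the log2 ratio of PG over skin was 0.42 and 0.22 with the limit of 1000 genes and with that of 50 keratin UMIs. Genes at least 2-fold higher and lower in members than in rule-negative barcodes numbered 1183 and 366 with the keratin limit of 50, 261 and 69 with a floor of 50 CPM and 1378 and 752 with no floor. The upper quartile of keratin in members was 43.8 UMIs per 10000. The limit of 50 thus kept few members, and ratios there rested on fewer UMIs. The floor of 50 CPM tests fewer genes, and with it 17 replication genes were higher and 573 and 504 genes were higher and lower in PG than in skin members. The sebocyte log2 ratio of highest over lowest tertile was 0.74 (-0.54 to 2.12) with the keratin limit of 50 and 0.65 without thinning, against -0.21, and the suprabasal one -1.42 without thinning. Within the lowest tertile of the suprabasal and duct sum, an alternative chosen after seeing the data, 0 suprabasal genes were at least 2-fold lower, which the restriction to low values of these genes sets, and the log2 ratios of *Ly6g6c* (1.32), *Slpi* (0.84), *Cst6* (0.051), *Fam25c* (0.058), *Krt79* (0.60) and *Plet1* (0.14) turned positive. Among these genes only *Slpi* (0.29 to 1.37) had an interval that excluded 0. *Awat2* (-0.21) and *Mcm6* (0.95) were then within 2-fold, and *Ccnd2* (-0.18, -0.38 to 0.02), *Scd1* (0.44) and *Cdkn1a* (1.35, -0.10 to 2.76) changed sign, the first and last with intervals that include 0. Causes of these changes other than the number of genes or barcodes entering were not tested. No paired analysis was possible because each tissue had 1 library, and for the same reason no library could be left out. Depth limits genes under about 2.76 CPM in members, the level that 0 UMIs allows.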
